A study of Apis mellifera with 6 samples.

Results

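Small heat shock proteins of the l(2)efl family were measured as transcripts in midguts of the adult honey bee (Apis mellifera), and the question followed here is which of the paralogues made up the pool with and without halofuginone. The set was chosen by gene identity. It held 9 of the 10041 genes listed in each library: the l(2)efl genes LOC410087, LOC724274, LOC724367, LOC724405, LOC724449 and LOC724488, which lie side by side in one cluster, a further pair of l(2)efl genes elsewhere in the genome (LOC410857 and LOC412197), and LOC408875, which encodes a heat shock protein beta-1 homologue. All 9 were found in every library and passed into every fit, so no member was lost to a filter on low values. In the control group, 3 bees were fed sucrose solution with 0.5% DMSO, and in the treated group 3 bees received the same solution with 200 µM halofuginone in 0.5% DMSO, each for 24 h. The libraries are Control 1, 2 and 3 and Halofuginone 2, 3 and 4. Each was made from the midgut of a single bee, and the study's methods state that the bees came from the landing boards of outbred colonies, with 1 colony per experiment. The sources used here give no age, and the bees of one group can differ in genotype and age.

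Small heat shock proteins are ATP-independent chaperones that share an alpha-crystallin domain. They assemble into large oligomers, hold partly unfolded proteins in a soluble state, and pass them to ATP-dependent chaperones of the Hsp70 type for refolding. The family name comes from lethal (2) essential for life, the Drosophila gene to which the bee genes are most closely related. Halofuginone inhibits prolyl-tRNA synthetase, the enzyme that loads proline onto its tRNA, and uncharged tRNA activates the integrated stress response, in which translation of most mRNAs is lowered and that of a few transcription factors is favoured.

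The libraries held 23305398 to 26278866 reads over the listed genes, recovered from normalised values that the authors had divided by size factors of 0.927 to 1.16. The values below are these normalised read counts. They were not divided by transcript length, since no lengths were used here, and a longer transcript gives more reads per molecule. Shares within the pool are therefore shares of reads, and an order of paralogues by share is not an order of molecules, while the change of one gene between groups does not depend on its length. Each library is a whole midgut, so fewer cells of a type and less RNA per cell cannot be told apart.

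The study designed 10 qPCR primer pairs for the members, 1 pair for each row of the table except LOC410087, which has a further pair. How well the sequencing reads could be told apart between paralogues was not tested. The forward primers of LOC724488 and LOC724405 are shown first because they share a stretch of 9 bases, printed in capitals, the longest run shared by primers of the same side in 90 comparisons between targets, against 7 for the next. All primers are printed 5′ to 3′ and come from the study's primer table.
LOC724488 forward: TGGGGTGAActtctgcgaaa
LOC724405 forward: ccaTGGGGTGAAttgttgcg
The primers to LOC410087 are shown because the study treats this locus as a pair of genes, LOC410087a and LOC410087b, each with its own primers, while the deposited table holds 1 row for it. The LOC410087 values below are thus a sum that cannot be divided between them.
LOC410087a forward: tttcccattggtgggaagca
LOC410087a reverse: aaccgtgatcatctgccttgt
LOC410087b forward: ccctttgaccagcttcttgga
LOC410087b reverse: cagcgacgaggtcttagcat
In the gene table used for gene order, LOC724274 also lies within the span of LOC410087. The sources used here do not say whether counting used strand or how reads matching several paralogues were treated, so the levels of LOC410087 and LOC724274 are uncertain in this respect. The same holds for LOC410857, which overlaps the listed gene LOC102653599 in that table.

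As a whole the pool was larger in all 3 halofuginone bees than in the controls. The normalised counts of the 9 genes summed to 37979, 41221 and 43988 in Control 1, 2 and 3, and to 94132, 131942 and 137235 in Halofuginone 2, 3 and 4. The mean sum was 41062 ± 3007 (SD, n = 3) in the controls and 121103 ± 23507 (SD, n = 3) after halofuginone, 2.95-fold higher (exact permutation test on the log2 sums, two-sided, p = 0.1, the smallest that 3 libraries against 3 can give). The groups did not overlap, and Halofuginone 2 was the lowest of the treated libraries. As a share of all normalised counts of a library, the pool held 0.162% ± 0.0101 (SD, n = 3) in the controls and 0.508% ± 0.105 (SD, n = 3) after halofuginone.

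Almost all of the additional counts came from 3 genes of the cluster. Of a mean gain of 80041 normalised counts, LOC410087 gave 34.2%, LOC724449 gave 30.9% and LOC724367 gave 28.5%, together 93.6%. LOC724274 added 3.71%, LOC724488 added 2.98%, LOC410857 added 0.611% and LOC724405 added 0.214%. For LOC412197 the contribution was -0.516% and for LOC408875 it was -0.598%, since their means were lower after halofuginone. The 6 cluster genes together went from a mean of 31752 ± 2751 to one of 112195 ± 25162 normalised counts (SD, n = 3 each), 3.53-fold higher (exact permutation test, two-sided, p = 0.1). The 3 genes outside the cluster summed to 9310 ± 1771 (SD, n = 3) in the controls and to 8908 ± 3170 (SD, n = 3) with the drug, a difference smaller than the spread between bees (exact permutation test, two-sided, p = 0.8).

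LOC724449 held the largest share of reads in all 6 libraries, with the drug and without it. Its share of the pool was 40.3%, 43.6% and 50.4% in Control 1, 2 and 3 and 36.9%, 33.0% and 37.6% in Halofuginone 2, 3 and 4. Every treated library lay below every control, with means of 44.8% ± 5.14 and 35.8% ± 2.47 (SD, n = 3 each), although the level of the gene itself was higher after halofuginone. The first place did not change hands between the groups.

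The places behind it did change. In the controls the second place went to LOC724488 in Control 1 and Control 3 and to LOC410857 in Control 2. LOC724488 held 24.0%, 17.2% and 16.0% in Control 1, 2 and 3 against 7.31%, 5.20% and 12.2% in Halofuginone 2, 3 and 4. LOC410857 held 11.4%, 19.0% and 13.0% against 8.67%, 2.22% and 6.01%. For both genes the treated libraries lay below all controls, and their mean shares went from 19.1% to 8.22% and from 14.5% to 5.63%.

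After halofuginone the places behind LOC724449 were held by LOC410087 and LOC724367, which had ranked sixth to eighth in the controls. LOC410087 held 4.92%, 3.02% and 2.85% in Control 1, 2 and 3 and 24.0%, 24.0% and 23.3% in Halofuginone 2, 3 and 4. Its share in treated bees was the most even of the larger members, 23.8% ± 0.40 (SD, n = 3), against 3.59% ± 1.15 in the controls. LOC724367 held 1.34%, 1.71% and 1.64% against 13.8%, 28.5% and 14.4%. In Halofuginone 3 it exceeded LOC410087 and took the second place. Without that library the mean treated share of LOC724367 was 14.1%, against 18.9% with it. The shares of the pair summed to 5.16% ± 0.961 without and 42.7% ± 8.53 with the drug (SD, n = 3 each), 37.6 percentage points higher, with no overlap (exact permutation test, two-sided, p = 0.1).

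**Figure D1:**
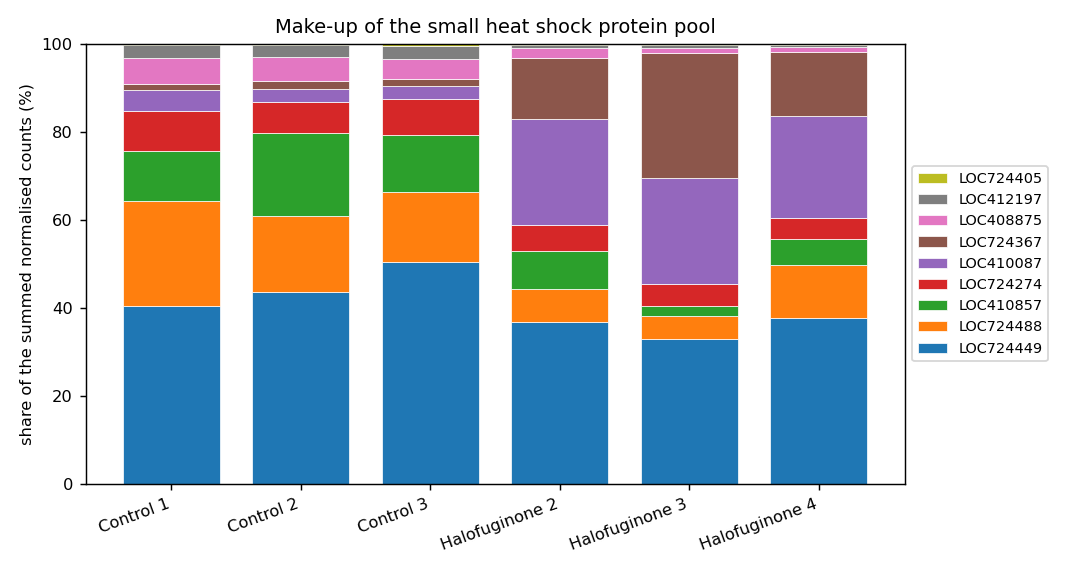
Share of each small heat shock protein gene in the summed normalised counts of the 9 genes, in percent, 1 bar per midgut library. LOC724449 (lowest block) held between 33.0% and 50.4% and led in all 6 bars, while LOC410087 and LOC724367 together held 4.48% to 6.26% of the control bars and 37.7% to 52.6% of the halofuginone bars.

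The remaining members all held smaller mean shares after halofuginone. LOC724274 went from 8.04% to 5.26%, LOC408875 from 5.30% to 1.47% and LOC412197 from 2.90% to 0.660%, each without overlap between the groups. LOC724405 was the smallest member in every library, at 0.300% and 0.241%, and its groups overlapped (exact permutation test, two-sided, p = 0.2). Over the 9 shares, 2 were higher and 6 were lower without overlap, each at the smallest p the design allows, 0.1 (exact permutation test, two-sided; Benjamini-Hochberg adjusted over the 9 members, 0.1125). Shares of one pool sum to a constant, so a lower share is not a lower level, and these tests are not independent of each other.

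The evenness of the pool was summarised by the effective number of paralogues, which is 1 divided by the sum of the squared shares and would equal 9 if all members held the same share. It was 4.03, 3.77 and 3.25 in Control 1, 2 and 3 and 4.35, 3.94 and 4.22 in Halofuginone 2, 3 and 4. The groups overlapped, with means of 3.68 ± 0.394 and 4.17 ± 0.210 (SD, n = 3 each; exact permutation test, two-sided, p = 0.2). Among the 6 cluster genes alone it was 2.43 ± 0.292 in control bees and 3.61 ± 0.0771 in treated bees, without overlap (exact permutation test, two-sided, p = 0.1). For the 8 l(2)efl genes, without LOC408875, it was 3.62, 3.40 and 2.99 in Control 1, 2 and 3 and 4.17, 3.86 and 4.12 in Halofuginone 2, 3 and 4, also without overlap (exact permutation test, two-sided, p = 0.1). Of these 3 pools, the groups overlapped only where the heat shock protein beta-1 homologue was counted in.

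At the level of single genes, 3 of the 9 members were called higher after halofuginone, LOC410087, LOC724367 and LOC724449, where a call is a Benjamini-Hochberg adjusted p below 0.05 over all 10041 genes in limma and a log2 fold change above 1. Of all genes tested, 1.67% were called higher by the same rule. edgeR called the same 3 members (1.63% of its genes were called higher), and DESeq2 called LOC724405 as a 4th (2.58%). On the adjusted p alone, LOC724274 was added, for 4 members (4.63% of all genes were higher on that rule). No member was called lower by limma, edgeR or DESeq2, where 0.697%, 0.813% and 1.42% of genes were, and 1 member, LOC412197, was lower at an unadjusted p below 0.05 in limma, as were 10.9% of all genes. Counts lay higher without overlap between the groups for 5 members (15.9% of all genes) and lower without overlap for 1 (14.7% of all genes). The median log2 fold change was 0.93 over the 9 members, 1.22 over the 6 cluster genes and -0.01 over all genes.

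LOC410087 had the smallest adjusted p of the members. Its normalised counts were 1867, 1245 and 1252 in Control 1, 2 and 3 and 22623, 31725 and 32040 in Halofuginone 2, 3 and 4. The groups were far apart, Control 1 was the highest control and Halofuginone 2 the lowest treated library. The mean was 19.8-fold higher, with a log2 change of 4.32 (SE 0.21; adjusted p = 0.000734 in limma).

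LOC724367, the paralogue for which the study also designed a rapid amplification assay, showed the largest log2 fold change of the members, and the largest ratio between the highest and the lowest treated bee. Its normalised counts were 509, 704 and 719 in the controls and 13019, 37619 and 19720 in Halofuginone 2, 3 and 4. No treated library came near the controls, but Halofuginone 3 stood 2.89-fold above Halofuginone 2. The log2 change was 5.06 (SE 0.37; adjusted p = 0.00341 in limma), and the mean was 36.4-fold higher.

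LOC724449, the leading member, started from a high level and rose by a smaller factor. Its normalised counts were 15314, 17962 and 22171 in the controls and 34692, 43508 and 51551 in Halofuginone 2, 3 and 4. The groups did not overlap, and in each group the libraries were spread by less than 1.5-fold. Its mean was 2.34-fold higher, and its log2 change of 1.22 (SE 0.22; adjusted p = 0.0237 in limma) lost the call with 1 library removed in 4 cases, with an adjusted p of 0.104 without Control 2, 0.0738 without Control 3, 0.0562 without Halofuginone 3 and 0.0707 without Halofuginone 4.

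**Figure D2:**
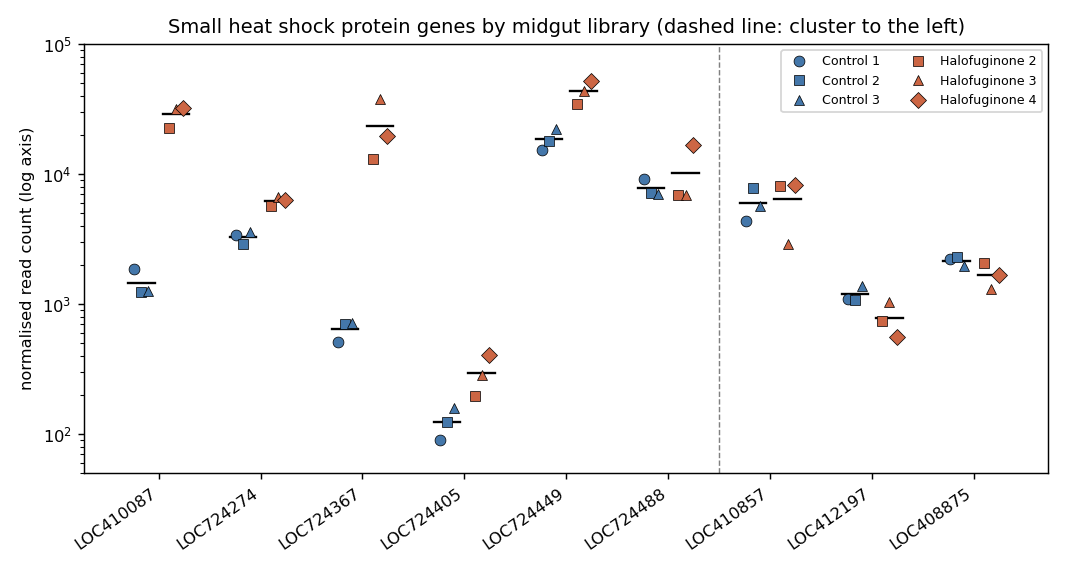
Normalised read count of each member (log axis) in the 3 control and 3 halofuginone libraries, with bars at the group means and a dashed line between the 6 cluster genes and the 3 genes outside. LOC410087 and LOC724367 stand 19.8-fold and 36.4-fold higher after halofuginone, LOC724449 is 2.34-fold higher from the highest control level, and the groups of LOC724488, LOC410857 and LOC408875 overlap.

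Of the cluster genes that were not called, LOC724274 was the most even between bees. Its normalised counts were 3414, 2890 and 3575 in the controls and 5725, 6684 and 6369 in Halofuginone 2, 3 and 4. The groups did not overlap, and its log2 change of 0.93 (SE 0.13; adjusted p = 0.0124 in limma) had a 95% interval of 0.63 to 1.23, so the fold threshold of 1 lies inside it. With scaling to library totals it was called, at 1.02 with an adjusted p of 0.0181. Its adjusted p in limma was above 0.05 without Control 2 (0.0651), without Control 3 (0.0576) and without Halofuginone 4 (0.0514).

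LOC724405 was the least abundant member. It had 90.5, 123 and 160 normalised counts in the controls and 198, 286 and 405 in Halofuginone 2, 3 and 4. All treated libraries lay above all controls, yet its log2 change of 1.22 (SE 0.32) missed the threshold in limma (adjusted p = 0.0654). DESeq2 called it (1.25, adjusted p = 0.00441), and with 85 reads in its lowest library counting error alone gave a coefficient of variation of 10.8% there.

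LOC724488 was the cluster gene with the weakest separation. It had 9108, 7103 and 7048 normalised counts in the controls and 6882, 6860 and 16679 in Halofuginone 2, 3 and 4. Halofuginone 2 and 3 lay below all controls and Halofuginone 4 lay above them, so the groups overlapped. Its log2 change was 0.26 (SE 0.35; adjusted p = 0.700 in limma), with a 95% interval of -0.55 to 1.08, and without Halofuginone 4 it was -0.16.

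None of the 3 genes outside the cluster was called. LOC410857 had 4335, 7820 and 5709 normalised counts in the controls and 8163, 2923 and 8246 in Halofuginone 2, 3 and 4. Halofuginone 3 was its lowest library and the other treated bees its highest, and the 95% interval of its log2 fold change, -0.99 to 1.01, holds changes of either sign. The fitted value was 0.01 ± 0.43 (SE; adjusted p = 0.995 in limma), and its sign turned under several settings.

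LOC412197 had 1106, 1079 and 1391 normalised counts in the controls and 740, 1035 and 563 in Halofuginone 2, 3 and 4. It was the only member whose treated libraries all lay below the controls, with Halofuginone 3 close to them, and its log2 change of -0.65 (SE 0.23) missed the threshold (adjusted p = 0.144 in limma). LOC408875, the heat shock protein beta-1 homologue, had 2236, 2293 and 1962 in the controls and 2090, 1301 and 1663 in Halofuginone 2, 3 and 4. Its groups overlapped through Halofuginone 2, and its log2 change was -0.38 (SE 0.18; adjusted p = 0.253 in limma).

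Ratios of paralogues within a library do not depend on the scaling between libraries, so they show which members kept step. For each treated library LOC410087 stood at a similar ratio to LOC724449, 0.652, 0.729 and 0.622 in Halofuginone 2, 3 and 4, against 0.122, 0.0693 and 0.0565 in Control 1, 2 and 3. LOC724367 reached 0.375, 0.865 and 0.383 of LOC724449 in the treated bees, from 0.0332, 0.0392 and 0.0324 in the controls. Both ratios were separated between the groups, and the second was highest in Halofuginone 3.

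LOC410087 and LOC724367 did not keep a fixed ratio to each other. LOC410087 exceeded LOC724367 by 3.67-fold, 1.77-fold and 1.74-fold in Control 1, 2 and 3. After halofuginone the ratio was 1.74, 0.843 and 1.62 in Halofuginone 2, 3 and 4, so Halofuginone 2 lay next to Control 3, and the groups met without overlapping.

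The ratio of LOC724405 to LOC724449, neighbours in the cluster, lay in a narrow range in both groups. Reads of LOC724405 per read of LOC724449 were 0.00591, 0.00687 and 0.00722 in Control 1, 2 and 3 and 0.00571, 0.00657 and 0.00785 in Halofuginone 2, 3 and 4. The control range lay inside the treated range, and the ratio shifted by 0.00 on the log2 scale (exact permutation test, two-sided, p = 1; Benjamini-Hochberg adjusted over the 36 pairs of members, 1). LOC724449 against LOC724488 gave 1.68, 2.53 and 3.15 in the controls and 5.04, 6.34 and 3.09 after halofuginone, where Halofuginone 4 fell back among the controls. Over the 36 pairs, 23 had ratios that did not overlap between the groups, among them every pair with LOC410087 or LOC724367. The share of such ratios over all gene pairs was not computed, so the count is not a result about the family. Exact permutation tests, two-sided, of 3 libraries against 3 cannot give a p below 0.1. With Benjamini-Hochberg adjustment the smallest p of these tests was 0.157, and no pair could have passed 0.05.

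**Figure D3:**
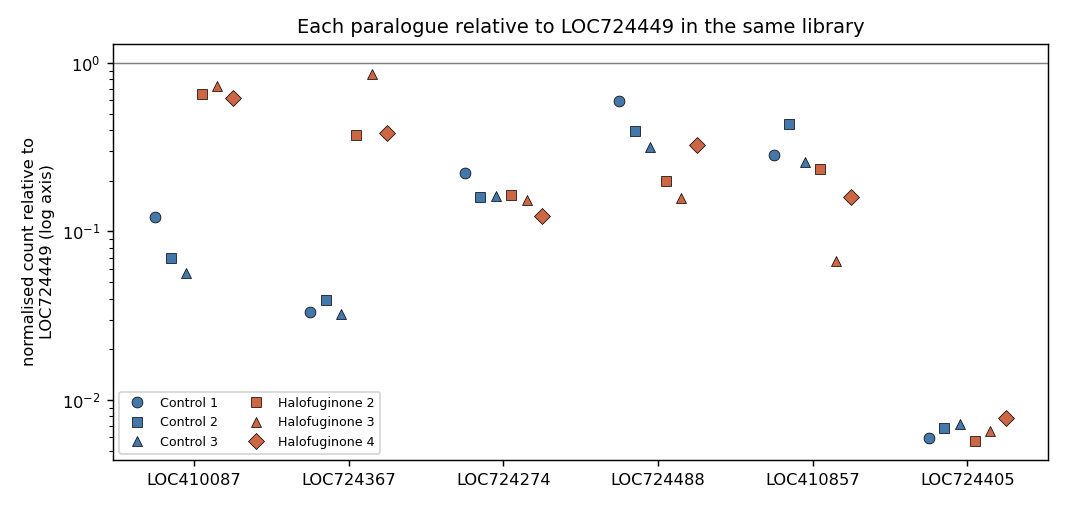
Normalised count of each of 6 members relative to LOC724449 in the same library (log axis, line at 1). LOC410087 and LOC724367 sit between 0.0324 and 0.122 in the controls and between 0.375 and 0.865 after halofuginone, whereas LOC724405 stays between 0.00571 and 0.00785 in all 6 libraries.

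How the members varied together between bees of one group was read from the order of libraries and from deviations from the group mean, since a correlation over the pooled groups would mostly measure the difference between them. With 3 libraries only 6 orders exist, and 18.6% of all pairs of listed genes had the same order in the controls, 17.3% in the halofuginone bees and 3.40% in both. Of the 36 pairs of members, 4 (11.1%) shared it in the controls, 5 (13.9%) in the halofuginone bees and 1 (2.78%) in both, so the members shared an order no more often than genes at large. The pair that shared it in both groups was LOC724405 and LOC724449, which a single pair does not set apart from the background, and the root-mean-square distance between their deviations, 0.156 on the log2 scale, was the smallest of the 36 pairs. Both were lowest in Control 1 and Halofuginone 2 and highest in Control 3 and Halofuginone 4.

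LOC724367 shared the order of this pair in the controls but not in the treated bees, where Halofuginone 3 was its highest library. LOC410087 shared it in the treated bees but not in the controls, where Control 1 was its highest library. LOC724274 had the order of LOC724367 in the treated bees and that of LOC412197 in the controls. LOC724488 and LOC410857 shared an order in the treated bees only. The members thus did not vary as one block between bees of a group.

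Some libraries were high or low for most of the cluster. Halofuginone 2 was the lowest treated library for 5 of the 6 cluster genes, compared with 33.1% of all genes, and Halofuginone 4 was the highest for 4 of 6, compared with 32.6% of all genes. Control 3 was the highest control for 4 of 6 cluster genes, compared with 26.8% of all genes. The exception in Halofuginone 2 was LOC724488, which was lower still, by a small margin, in Halofuginone 3. Since the genes of a library share its RNA, these counts are a description of 6 libraries.

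The spread between bees of one group also differed between members. Its SD on the log2 scale was lowest for LOC724274 (0.14) and highest for LOC410857 (0.68), LOC724367 (0.58), LOC724488 (0.54) and LOC724405 (0.46). LOC724449 (0.28), LOC410087 (0.31), LOC412197 (0.34) and LOC408875 (0.26) lay between. The median over the members was 0.34, against 0.25 over all genes. Every member had a mean of at least 100 normalised counts, and over genes with such a mean the median was 0.205. LOC410857 lay at the 88.9th percentile of all genes and the 94.9th of genes with such a mean, and LOC724274 at the 19.7th and 25.8th.

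**Figure D4:**
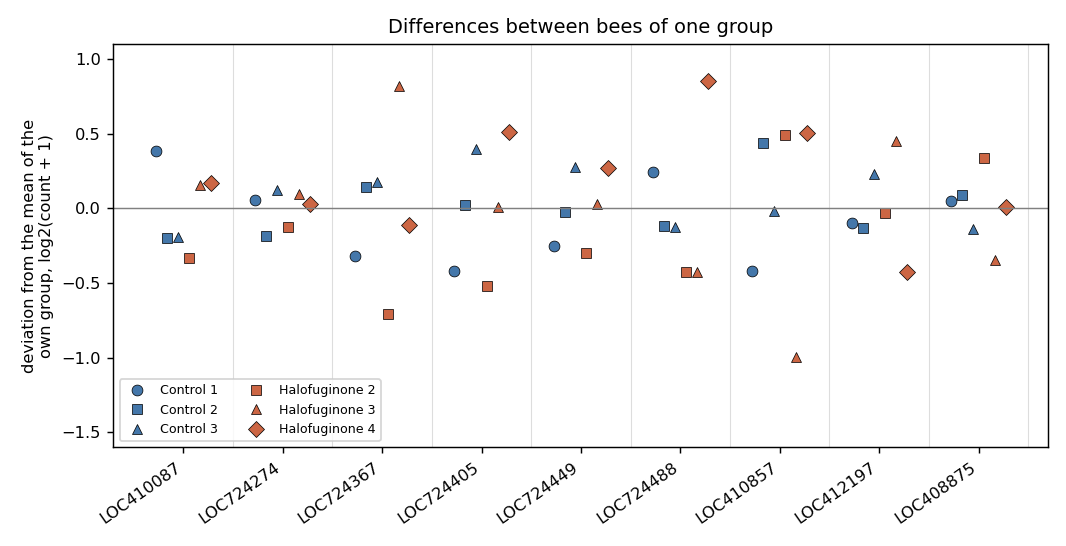
Deviation of each library from the mean of its own group, on the log2(normalised count + 1) scale, for the 9 members. Only 1 of 36 pairs of members, LOC724405 and LOC724449, shows the same order of libraries in both groups (3.40% of all gene pairs do), and the widest treated spreads are those of LOC410857, lowest in Halofuginone 3, LOC724488, highest in Halofuginone 4, and LOC724367, highest in Halofuginone 3.

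Genes whose profiles over the 6 libraries were most like those of the called members were taken from 7468 non-member genes with a mean of at least 100 normalised counts, by the smallest root-mean-square distance of mean-centred log2 values. For LOC410087 the nearest was LOC552832, at a distance of 0.237, followed by LOC102654076 at 0.398 and LOC100578455 at 0.522. LOC552832 went from 391 ± 110 to 7597 ± 905 normalised counts (SD, n = 3 each), a log2 difference of 4.31. All 3 were nearer to LOC410087 than its closest fellow member, LOC724367, at 0.613. The candidates far outnumber the members, and the distance spans both groups, so it largely follows the difference between them. Such comparisons with members, here and below, are descriptive only.

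For LOC724367 the nearest gene was LOC102654968, at 0.389, which like it was highest in Halofuginone 3, with 3708, 19704 and 5058 normalised counts in Halofuginone 2, 3 and 4. LOC102654076 at 0.732 and LOC552832 at 0.751 followed, farther than the member LOC410087. For LOC724449 the nearest were LOC107965024 at 0.128, LOC413791 at 0.161 and LOC725234 at 0.162, and among the members LOC724405 at 0.156 stood between the first and the second of these. In the gene table, LOC102654076, LOC102654968, LOC413791 and LOC725234 overlap another listed gene, so their counts carry the same uncertainty as those of LOC724274.

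Of 4 other heat shock genes found by symbol, 1 was called higher and 0 were called lower. The gene called was Hsc70-5, named after a mitochondrial Hsp70-type chaperone of Drosophila. It had 5859, 5441 and 5263 normalised counts in Control 1, 2 and 3 and 11521, 13765 and 13364 in Halofuginone 2, 3 and 4. Its groups were well apart, with a log2 change of 1.22 (SE 0.12; adjusted p = 0.00692 in limma). The others, Hsc70-4, Hsc70-3 and Hsp90, had log2 fold changes of -0.19 (SE 0.24), -0.67 (SE 0.40) and -0.34 (SE 0.53), none past the test. Control 1 lay well above the other controls for Hsc70-3 (72873 against 37253 and 26805 in Control 2 and 3). The same held for Hsp90 (49787 against 23258 and 13686).

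Among stress regulators, searched by the study's identifiers or by symbol, 2 genes were found, both by identifier. No gene was found under the symbols searched for further transcription factors (such as Hsf, Atf4, Xbp1 and foxo), so their levels were not examined. LOC725081, which the study names as CncC, the insect counterpart of the antioxidant regulator Nrf2, had 5051, 5168 and 5598 normalised counts in the controls and 7857, 8743 and 8058 in Halofuginone 2, 3 and 4. Its groups did not overlap, and it rose by a log2 change of 0.64 (SE 0.11; adjusted p = 0.0232 in limma), below the fold needed for a call. LOC411679, named as Keap1, the inhibitor of CncC, had a log2 fold change of -0.19 (limma, adjusted p = 0.614). Of the flanking genes of the cluster, LOC411348 had a log2 fold change of -0.14 (limma, adjusted p = 0.634) and LOC100576174 of -0.63 (limma, adjusted p = 0.154), so neither passed the test.

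Markers by symbol of fat body, muscle (troponin genes), hypopharyngeal gland and nerve were present at low to moderate levels in every library. None was at 0, and none of 15 passed the test. The study's methods place the hypopharyngeal glands in head tissue, and which cells gave the reads of any list was not tested. The 5 fat body markers summed to between 735 and 973 normalised counts in the controls and between 453 and 721 after halofuginone. The sums were lower without overlap, but among the single markers only Hex110 was. LOC412197 was the member that was also lower without overlap, as were 14.7% of all genes. Its order of libraries differed from that of the summed fat body markers in both groups. The fat body order was shared by LOC410857 in the controls and by LOC408875 in the treated bees only. The 7 troponin genes summed to 5340 to 8916 and 4750 to 8532. LOC410857 had the same order of libraries as this summed troponin level in both groups, as did 5.29% of all genes. The 2 hypopharyngeal gland markers summed to 1622 to 3140 and 1562 to 2577, and their order was shared by LOC724367, LOC724405 and LOC724449 in the controls and by LOC412197 in the treated bees, but by no member in both. LOC724488 shared the troponin order in the treated bees only. For matches in a single group the share over all genes was not computed, so they are not a result about the members. The nerve marker Syt1 lay at 40.5 to 94.4 and 47.8 to 59.3. The part of these markers in the members' results was not tested. Defining markers of midgut cells could not be checked, since the gene table holds no product names.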

How the data were processed

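Per the study's methods and the submitters' processing notes, poly(A) RNA of 6 midguts was sequenced as paired reads, trimmed with Trimmomatic (0.36), mapped to Amel 4.5 and counted per gene. The notes also name STAR, Subread and DESeq2 without a version. The strand setting and the treatment of reads with several matches are not stated in the sources used here. The 3 deposited tables hold a normalised signal, for which the authors had divided read counts by a size factor per library. In each library 100% of values gave whole reads within 0.01 reads. There were 0 unused columns.

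All 10041 genes were fitted with limma (3.58.1, R 4.3.3) and a variance trend on log2(value + 1), a scale that understates changes of low genes. Count tests on the recovered reads, edgeR (4.0.16, which called 162 genes higher and 81 lower) and DESeq2 (1.42.0), were alternatives, beside other scalings, pseudocounts, a filter, blocks and leaving out each library. Sums, shares and ratios per library were compared by exact permutation tests, two-sided. The limma fit was tested on simulated data. Python (3.11.15) with scipy (1.17.1) was used for the rest. P-values measure the spread between single bees, and those of limma use a variance estimated partly from all genes. They do not measure differences between colonies or between cages.

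The members and lists were chosen with earlier results of these data known. Genes named were the 9 members, the 3 nearest profiles of each called cluster gene, and the flanking genes. Regulators by identifier or symbol, other heat shock genes by symbol, and markers by symbol were added. The gene table used for gene order, in which 9 of 9 members were found, belongs to Amel_HAv3.1, so no coordinates are given.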

Additional observations from a re-analysis of the deposited data

How the results depend on the processing

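The number of members called higher was 3 and stayed between 2 and 4 in 15 of 16 alternatives, and leaving out 1 library gave 2 to 3. The exception was the replicate block by the number in the title, with 1 member, LOC410087. There LOC724449 had 0.96 (adjusted p = 0.0850) and LOC724367 had 4.96 (adjusted p = 0.0583). Only 2 numbers are shared by the groups, and deviations of same-numbered libraries correlated at 0.0715 and -0.0330 across genes, so the numbers were not treated as pairs. LOC724274 had 0.94 (adjusted p = 0.070). With the deposited table as a block, the adjusted p was 0.0694 for LOC724449 and 0.0785 for LOC724274. The number of members called lower was 0 throughout. LOC410087 was called under all 16 alternatives, with log2 fold changes of 4.22 to 4.51. The log2 fold change of LOC724488 turned to -0.042 with the replicate block and ranged from -0.16 to 0.48 with 1 library left out. That of LOC410857 turned to -0.0097 with TMM scaling and to -0.45 with the replicate block, and ranged from -0.24 to 0.50 with 1 library left out. It came to -0.20 when Control 1 was removed, -0.0015 when Control 3 was, and -0.24 when either Halofuginone 2 or Halofuginone 4 was. The cause was not tested. The log2 change of the pool stayed at 1.44 to 1.80, the combined share of LOC410087 and LOC724367 at 32.6 to 40.1 points higher, and the effective number at 0.272 to 1.17 higher. Over all genes, 168 higher and 70 lower calls became 3 and 0 with the replicate block, 6 and 1 with the table block, 248 and 137 with DESeq2, and, with 1 library removed, 194 and 83 (Control 1), 49 and 14 (Control 2), 35 and 12 (Control 3), 131 and 44 (Halofuginone 2), 134 and 62 (Halofuginone 3), and 83 and 43 (Halofuginone 4). Library totals moved the median of all genes to 0.08 (log2). Dividing counts by coding length was not run, since no lengths were used here. Among the members, depth limits LOC724405 most.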
